A study of Homo sapiens with 2 samples.

Results

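Annexins are cytoplasmic proteins that bind membranes rich in acidic phospholipids when calcium rises. They share a C-terminal core built of repeats that hold the calcium sites, and they differ in the N-terminal tail, which binds partners such as S100 proteins. In cells they take part in membrane repair, vesicle traffic and the handling of exposed phosphatidylserine. The transcripts of 9 annexin genes (ANXA1, ANXA2, ANXA3, ANXA4, ANXA5, ANXA6, ANXA7, ANXA8 and ANXA11) were examined here for contact with the RNA-binding protein RBMS3. Every listed RBMS3 site on the same strand within these genes was taken (GENCODE release 44, hg38), which gave 58 sites of the 27706 in the list.

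The sites came from CLIP-seq, in which protein is crosslinked to RNA by ultraviolet light and the bound RNA is sequenced, in FLAG-tagged RBMS3 cells of MDA-MB-231, a human cell line derived from triple-negative breast cancer. The tagged protein came from a stably transduced lentiviral vector with the EF1a promoter, added to cells that keep their own RBMS3 gene. There was 1 group of 2 biological replicates, both with the tagged protein, and no untreated or control sample was analysed here. For replicate 2, the sample title gives MDA-MB-231, but the fields for source and cell line give a different line number. A site is a base that was skipped in some of the unique sequenced fragments (tags) that cover it, and its values are the number of tags and the number of those with the deletion, pooled over both replicates by the authors. The pooled values have no error between replicates, so each percentage is given with a 95% Wilson interval, which covers counting error only. Neighbouring sites share tags, so their intervals are not independent. The list holds sites called from deletions and does not measure RNA levels. Of the genes known to be high in this line, VIM held 14 sites, CD44 30, AXL 6 and CAV1 32. Of those known to be low or absent, ESR1, PGR and CDH1 held none, and EPCAM held 1, with 20 of 20 tags deleted.

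The stretches below show where the deletions fell in the 9 clusters (neighbours within 50 nt) whose deletions were present in less than 30% of tags, leaving out the isolated upstream site of ANXA5. Each is the 30-nt stretch that holds the most sites of its cluster, read 5′ to 3′ on the transcript in DNA letters, and capitals mark the deleted bases. T stands for uridine in the RNA. Which base of a homopolymer was skipped cannot be read from a deletion, and all 38 annexin sites in runs were listed at the base with the lowest coordinate, so the capital is the first base of a run on the plus strand and the last on the minus strand.
ANXA1 3′UTR, chr9:73170349-73170378, plus strand, 9 of 13 sites: GAaagatgtcTAtgtagCtgAaaaTAaaaT
ANXA2 3′UTR, chr15:60347326-60347355, minus strand, 2 of 2 sites: taaactgaattTgtacttTagaaacacgta
ANXA3 3′UTR, chr4:78610409-78610438, plus strand, 4 of 7 sites: taTaaagcaagataaTaaaaaTtgttgcTt
ANXA3 intron, chr4:78575152-78575181, plus strand, 1 site: ccactttcatatgtcAataaaatataaaat
ANXA5 3′UTR, chr4:121668004-121668033, minus strand, 12 of 17 sites: aAgAtTaAtgaaaaATaaaCattTCTGTcc
ANXA7 3′UTR, upstream cluster, chr10:73375801-73375830, minus strand, 3 of 3 sites: ttCattctaatcaagatgtcaaAttgaAta
ANXA7 3′UTR, downstream cluster, chr10:73375474-73375503, minus strand, 3 of 5 sites: ttttTcgcagttgtttTcttttttTaaatt
ANXA11 3′UTR, chr10:80155586-80155615, minus strand, 1 site: agatgtttcattttTctgactcatgcaatc

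RBMS3 sites were listed in 6 of the 9 annexin genes, whereas 37.6% of the 20046 protein-coding genes held a same-strand site. The same 6 genes held a 3′UTR site, against 31.8% of protein-coding genes, and a site with deletions in under 30% of the tags, against 29.1%. The 9 genes were chosen with earlier results of these data known, and these shares cover genes whatever their expression in this line. ANXA5 held 18 sites, ANXA1 14, ANXA3 10, ANXA7 9, ANXA2 4 and ANXA11 3, and ANXA4, ANXA6 and ANXA8 held none. ANXA1 and ANXA5 together held 32 of the 58 sites (55.2%). No annexin gene held a site on the opposite strand, and none of the 58 sites lay in a second gene on the same strand. The sites were of separate kinds. At 50 sites, the low-percentage sites, the deletion was in under 30% of the tags, with 37 or more deletions each, and at 8 sites it was in 30% or more of the tags, with 8 to 25 tags each.

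**Figure D1:**
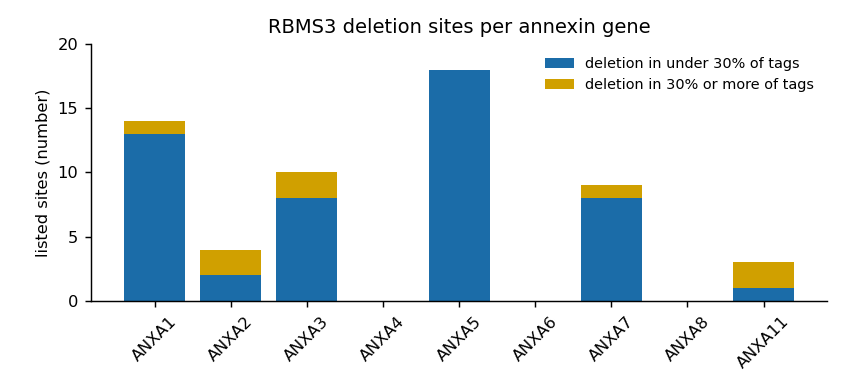
Number of listed RBMS3 sites per annexin gene, split by whether the deletion was present in under 30% or in 30% or more of the tags. ANXA5 (18 sites) and ANXA1 (14) held the most, and ANXA4, ANXA6 and ANXA8 held none.

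Most annexin sites lay in 3′UTRs, the part of an mRNA after its stop codon. The 3′UTR held 52 of the 58 sites (89.7%, interval 79.2 to 95.2%), compared with 76.6% of all listed sites. Among the low-percentage sites, 49 of 50 lay in a 3′UTR (98.0%), against 95.2% of all listed sites of this kind. An annotated transcript end was within 100 nt downstream of 45 of these 50 sites (90.0%, interval 78.6 to 95.7%), against 74.2% in the list. Ends of all annotated transcripts of a gene were used, coding or not. All 31 low-percentage sites of ANXA1 and ANXA5 were this near an end, and those that were not lay in ANXA3 and ANXA7. The share thus rests largely on the dense clusters of ANXA1 and ANXA5 and is not a trait of each annexin. Over all 58 sites it was 77.6% by any annotated end and 60.3% by the representative end alone. The RNA was captured through poly(A), and what this contributed to sites near ends was not tested. Sites of 1 transcript share tags and sequence, so they are not independent, and these intervals are too narrow for comparisons between genes.

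The sites of ANXA1 and ANXA5 were covered deeply, and those of the other annexins were not. Over all 58 annexin sites the median was 20301 tags (quartiles 2792.5 and 60308.5), against 2883.5 over the list. It was 5372 without the sites of ANXA5, 11013.5 without those of ANXA1 and 3301 for the 26 sites of the other 4 genes. The 19 low-percentage sites of those 4 genes had a median of 4872 tags, against 6180 for all listed sites of this kind. Over all 58 sites the median deletion percentage was 0.576% (quartiles 0.186 and 3.11%) against 2.95%. All 27 annexin sites with 30000 tags or more were in ANXA1 and ANXA5. The median percentage was 1.31% without the sites of ANXA5 and 0.933% without those of ANXA1. In the full list, sites at this depth had a median deletion percentage of 0.259%, compared with 0.168% for the 27 annexin sites. Among the sites under 30%, the smallest deletion count was 37 in the annexins and 32 in the list, so a low percentage could be listed only where many tags were present. At the 5372 tags of the ANXA2 sites, 37 deletions would amount to 0.689%, and 26 of the 31 low-percentage sites in ANXA1 and ANXA5 lay below that value. The number of sites per transcript is therefore not a measure of binding at equal depth.

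**Figure D2:**
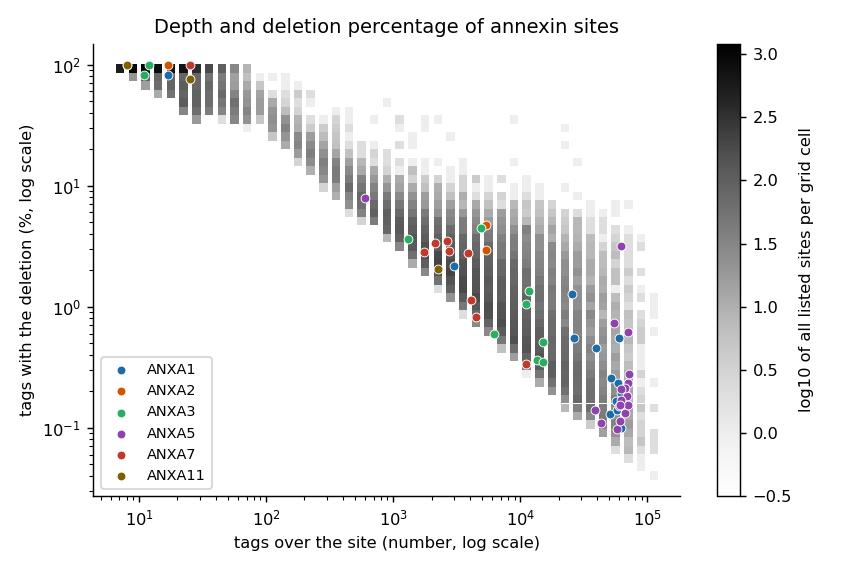
Tags over each site against the percentage of tags with the deletion, both on log scales, with all 27706 listed sites as a grey grid and the 58 annexin sites as points coloured by gene. The ANXA1 and ANXA5 points gather at high depth and low percentage, and the 8 sites with 30% or more lie at 25 tags or fewer.

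ANXA1 and ANXA2 are the annexins best known for pairing with S100 proteins. ANXA1, a mediator of the anti-inflammatory action of glucocorticoids, binds S100A11, and ANXA2 forms a complex with S100A10 that recruits plasminogen to the cell surface. In ANXA1 (chromosome 9, 73151865 to 73170393, plus strand) all 13 sites of the 3′UTR, which is 289 nt long, fell in 1 cluster of 82 nt, 15 to 96 nt before the transcript end. The deepest site of this cluster had 61731 tags, a depth exceeded in 39 of the 6372 genes with a 3′UTR site.

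Along this cluster the percentage was highest at the 5′ edge, where depth was lowest. At 96 nt from the end, 65 of 3007 tags carried the deletion (2.16%, interval 1.70 to 2.75%). At 66 nt, 324 of 25428 tags did (1.27%, interval 1.14 to 1.42%). These are the highest percentages of the cluster, and their intervals overlap with none of the others. The most deletions, 329 of 60199 tags (0.547%, interval 0.491 to 0.609%), were at a run of 4 adenines that runs into the poly(A) signal AATAAA, the sequence that directs cleavage and polyadenylation, 24 nt from the end. The remaining 10 sites ranged from 0.0988 to 0.556%. The deleted base was T at 6 of the 13 sites of the cluster, A at 5, G at 1 and C at 1. ANXA1 also held 1 site in a coding exon (position 73159350), where 14 of 17 tags carried the deletion (82.4%, interval 59.0 to 93.8%).

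ANXA2 (chromosome 15, 60347134 to 60402883, minus strand) showed a smaller pattern. Its 3′UTR held 2 sites, both in runs of 3 T and both downstream of AATAAA. At position 60347344, 254 of 5372 tags carried the deletion (4.73%, interval 4.19 to 5.33%), and at position 60347337, 158 of 5372 did (2.94%, interval 2.52 to 3.43%). The 2 intervals do not overlap. The listed bases, each the last of its run, lay 13 and 20 nt after the first base of the signal. They lay 193 and 186 nt before the end of the representative transcript, but 2 and 0 nt before the ends of other annotated ANXA2 transcripts. An intronic site had 17 of 17 tags deleted, and a site in an exon of noncoding transcripts had 8 of 8. ANXA2 has processed pseudogenes elsewhere in the genome. The 51-nt windows around the 3′UTR sites had 10 or more mismatches to the pseudogenes ANXA2P1, ANXA2P2 and ANXA2P3 in every case. No site was listed in these pseudogenes. The comparison allowed no gaps, and the windows run past the nearest annotated ANXA2 ends. The 21-nt interval of the site at 60347344 occurs 3 times in hg38. Whether tags at these sites came from pseudogenes was not tested.

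ANXA3 and ANXA5 have short N-terminal tails. ANXA5 binds phosphatidylserine and is used as a label of dying cells, and ANXA3 is a related protein that has been studied in white blood cells. In ANXA5 (chromosome 4, 121667946 to 121696995, minus strand) all 18 sites were in the 3′UTR of 525 nt, and 17 of them filled 1 cluster of 54 nt. Among genes with a 3′UTR site, 54 of 6372 held more sites, 18 had a deeper site (the deepest here had 71542 tags) and 23 had a site with more deletions.

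The ANXA5 cluster had a clear maximum. At position 121668010, the last of 3 T in the sequence that follows AATAAA, 1973 of 62286 tags carried the deletion (3.17%, interval 3.03 to 3.31%). At the next base downstream, a C, 130 of 62100 tags did (0.209%, interval 0.176 to 0.248%). Depth was thus nearly equal at these neighbouring bases and the deletion counts were not. From this maximum on, 5 consecutive bases were listed, and the last 3 had percentages of 0.168, 0.154 and 0.114%, with intervals that overlap. The other sites of the cluster over 0.5% were at a T 22 nt before the signal (400 of 54753 tags, 0.731%, interval 0.663 to 0.805%) and at the last A of a run of 5 that includes the start of the signal (431 of 70258 tags, 0.613%, interval 0.558 to 0.674%). The intervals of these 2 sites overlap. The remaining sites ranged from 0.0984 to 0.280%.

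The ANXA5 cluster lay 60 to 113 nt before the end of the representative transcript. Another annotated end fell within it, 1 nt after position 121668028. An isolated site further upstream (position 121668132, in a run of 3 T) had 47 of 594 tags deleted, and its 7.91% (interval 6.0 to 10.4%) was the highest percentage of any annexin site under 30%.

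In ANXA3 (chromosome 4, 78551747 to 78610451, plus strand) 7 of the 10 sites formed a cluster 10 to 60 nt before the representative end. Both ATTAAA, a variant poly(A) signal, and AATAAA lie in its last 50 nt, and another annotated end falls inside the cluster, 4 nt after position 78610411. At the site farthest from the end, in a run of 3 T upstream of ATTAAA, 218 of 4872 tags carried the deletion (4.47%, interval 3.93 to 5.09%). Depth rose to 15174 tags at 23 nt from the end, inside AATAAA, where 77 tags (0.507%, interval 0.406 to 0.634%) carried a deletion. Downstream of AATAAA the percentages were higher again, with 158 of 11727 tags (1.35%, interval 1.15 to 1.57%) at 17 nt and 115 of 10984 tags (1.05%, interval 0.873 to 1.26%) at 10 nt from the end, and these 2 intervals overlap.

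ANXA3 also held the only intronic annexin site with a low percentage. At position 78575167 the deletion was at the first base of an AATAAA, in the sequence shown above, in 47 of 1310 tags (3.59%, interval 2.71 to 4.74%). The nearest annotated end in the gene is 7124 nt downstream. The remaining ANXA3 sites had 9 of 11 tags deleted in an intron and 12 of 12 in the 3′UTR, 242 nt from the representative end.

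**Figure D3:**
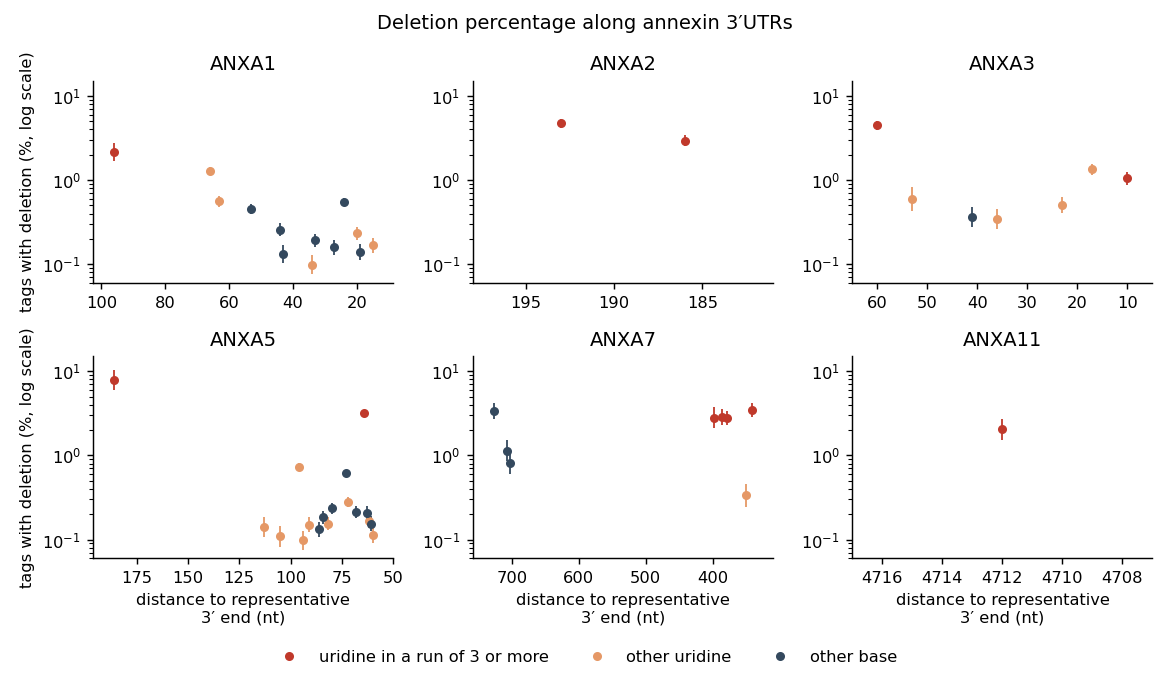
Percentage of tags with the deletion (log scale) against the distance to the end of the representative transcript for the 3′UTR sites under 30%, with 95% Wilson intervals, 1 panel per gene, running 5′ to 3′ from left to right, coloured by the deleted base (a uridine in a run of 3 or more, another uridine, another base). The highest point of the ANXA1, ANXA3 and ANXA5 panels is a uridine in a run of 3 or more, and in ANXA7 such a site and a C have overlapping intervals.

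ANXA7 and ANXA11 have long N-terminal tails rich in glycine and proline. ANXA7, or synexin, promotes membrane fusion, and ANXA11 tethers RNA granules to lysosomes. In ANXA7 (chromosome 10, 73375101 to 73414076, minus strand) none of the 8 sites of the 3′UTR was near the end of the representative transcript, whose last 50 nt hold neither AATAAA nor ATTAAA. The downstream cluster of 5 sites lay 341 to 398 nt before that end, around another annotated end that is 7 nt after position 73375452. An AATAAA starts 10 nt before that position.

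In the downstream cluster of ANXA7, 4 of 5 sites were in uridine runs. The sites in runs of 8, 4, 7 and 3 T had 49 of 1738, 78 of 2721, 108 of 3881 and 92 of 2656 tags deleted. Their percentages, 2.82, 2.87, 2.78 and 3.46%, did not differ beyond their intervals. The site in a run of 2 T, at position 73375452, had 37 of 11043 tags deleted (0.335%, interval 0.243 to 0.461%), below the others with no overlap. The upstream cluster, 702 to 727 nt before the representative end, lay around a separate AATAAA. There the site with the highest percentage was a C (72 of 2146 tags, 3.36%, interval 2.67 to 4.20%), and the 2 sites at adenines had 1.14 and 0.819%. The remaining site, in an intron, had 25 of 25 tags deleted.

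ANXA11 (chromosome 10, 80150889 to 80205572, minus strand) has the longest 3′UTR of the 9 genes, 4967 nt in the representative transcript, and held 3 sites in it. At position 80155601, in a run of 5 T, 46 of 2246 tags carried the deletion (2.05%, interval 1.54 to 2.72%). This site lay 4712 nt before the representative end and 13 nt before the end of another annotated transcript, and neither AATAAA nor ATTAAA was within 50 nt. The other sites had 8 of 8 and 19 of 25 tags deleted. The 21-nt interval of the former, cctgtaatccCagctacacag, shown because it is repeated, occurs 518 times in hg38, and that of the latter 10 times. In all, 10 of the 58 intervals of 21 nt occur more than once. Among them are that of the ANXA7 site with the highest low percentage of its gene (73375442, 15 copies), the intronic ANXA3 site with 11 tags (78555780, 6 copies) and the ANXA2 site at 60347344 (3 copies), and the other 5, in ANXA5 and ANXA7, have 2 or 3 copies. The 51-nt windows around all 58 annexin sites each occur once.

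ANXA4, ANXA6 and ANXA8 had no listed site in any part of the gene, and the nearest same-strand site downstream was 54221, 409881 and 1455026 nt away. ANXA4 is abundant in secretory epithelia, ANXA6 has a duplicated core and acts on endosomes, and ANXA8 is a relative of ANXA5 with anticoagulant activity in vitro. The ends of their representative transcripts were not unusual. The last 50 nt hold ATTAAA in ANXA4 and AATAAA in ANXA6 and ANXA8. Over 19936 protein-coding transcripts, AATAAA is present there in 63.8% and either signal in 77.8%. A and T make up 71.0, 69.0 and 59.0% of their last 100 nt, against a median of 66.0% (quartiles 56.0 and 72.0%) over the 19936 transcripts and 59.0 to 77.0% in the 6 genes with sites. These values do not set the annexins without a listed site apart from most transcripts, and the low-percentage sites of ANXA2, ANXA7 and ANXA11 were not at the representative end. Tags over unlisted positions were not analysed here, so low RNA level, low depth and lack of contact cannot be told apart for these genes. ANXA8 is further limited by its near copy ANXA8L1: of 807 windows of 51 nt in its 3′UTR, 756 (93.7%) occur unchanged in ANXA8L1, which also had no site. How tags that match both copies were treated is not given in the sources used here.

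Poly(A) signals were near most of the low-percentage annexin sites, which lay on both sides of them. AATAAA was within 25 nt of 34 of the 50 sites (68.0%, interval 54.2 to 79.2%), against 57.7% of listed sites of this kind, a value inside the interval. With ATTAAA added, the shares were 72.0% in the annexins and 71.2% in the list. By the nearest signal within 50 nt, 25 sites were upstream of it, 8 inside it and 14 downstream, and 3 had none. The same classes held 43.0, 11.7, 27.7 and 17.6% of all listed sites under 30%. ANXA1 sites were mostly upstream (9 of 13), ANXA2 sites downstream (2 of 2), and ANXA5 sites on both sides (9 upstream, 2 inside and 6 downstream).

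The study links RBMS3 to an AUA-rich element, searched here as 7 nt around a central ATA (A, G or T, then A or T, then ATA, then A or T, then A). It was within 25 nt of 36 of the 50 sites (72.0%, interval 58.3 to 82.5%), against 55.6% in the list. In most of these windows the match was the poly(A) signal itself. A match that does not contain AATAAA was near 7 of the 50 sites (14.0%), compared with 16.1% in the list. All 7 were in ANXA3, 6 in its 3′UTR cluster and 1 at the intronic site, and ANXA1, ANXA2, ANXA5, ANXA7 and ANXA11 had none among their low-percentage sites. Motifs were read on the transcript strand.

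**Figure D4:**
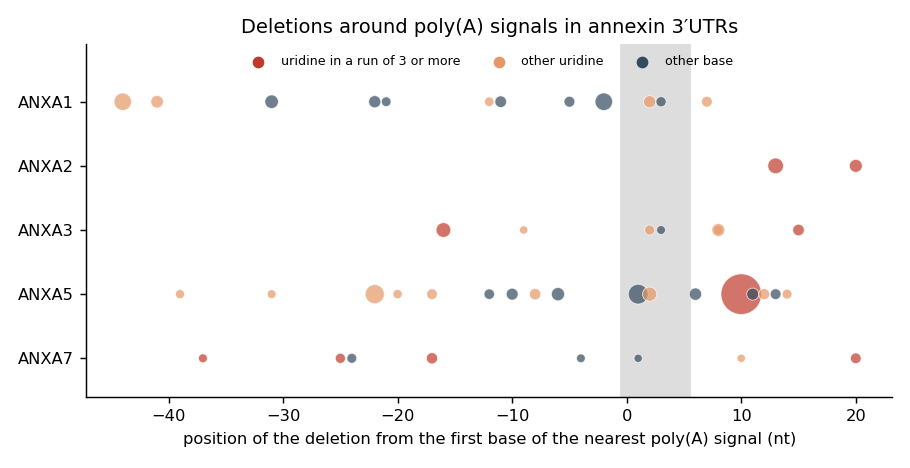
Position of each low-percentage 3′UTR deletion relative to the first base of the nearest AATAAA or ATTAAA within 50 nt (grey band, the 6 bases of the signal), with point area growing with the number of deletions and the same colours for the deleted base. ANXA1 deletions were mostly upstream, both ANXA2 deletions were downstream, and the large ANXA5 point is the site with 1973 deletions, 10 nt after the start of the signal.

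Uridine runs were compared with other deleted bases over the low-percentage sites. A run of 3 or more T held 12 of these 50 sites (24%, interval 14.3 to 37.4%), a lower share than in the list (45.2%). The low share came from the dense clusters of ANXA1 (1 of 13 sites) and ANXA5 (2 of 18). It was 2 of 2 in ANXA2, 2 of 8 in ANXA3, 4 of 8 in ANXA7 and 1 of 1 in ANXA11. Of all listed sites with 30000 tags or more, 12.5% were in such runs. In ANXA1, ANXA3 and ANXA5 the site with the highest percentage was in such a run. Its interval did not overlap with that of any low-percentage site of the gene's 3′UTR outside such a run. The intronic ANXA3 site, outside such a run, had 3.59% (interval 2.71 to 4.74%), which overlaps with the highest of that gene (4.47%, interval 3.93 to 5.09%). In ANXA7 the highest, 3.46% in a run of 3 T (interval 2.83 to 4.23%), was not separated from the C at 3.36%. ANXA2 and ANXA11 had no low-percentage site outside such runs to compare with. Deletions at any base of a run are listed at 1 base, so the value of a run can sum over its bases. The 12 sites in runs ranged from 1.05 to 7.91% (median 2.91%), and the other 38 ranged from 0.0984 to 3.59% (median 0.234%). The full list showed medians of 2.86% in such runs and 0.799% elsewhere. Of the 33 annexin sites under 1%, none was in such a run (interval up to 10.4%), against 8.50% in the list. Of the 17 sites from 1 to 30%, 12 were (70.6%), against 65.2% in the list, so neither share was apart from the list's beyond its interval. The sites in runs had fewer tags (median 3444, against 57004.5 for the others), and the part of depth in this difference was not tested. In ANXA5, 3.17% in a run of 3 T stood beside 0.209% at the next base, with 62286 and 62100 tags. In ANXA3, by contrast, 1.05% in a run of 4 T (10984 tags) was not above 1.35% in a run of 2 T (11727 tags). The intervals of these ANXA3 sites overlap. Over all 58 sites, the deleted base was T at 35 (60.3%, interval 47.5 to 71.9%), against 63.2% in the list.

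The 8 annexin sites with deletions in 30% or more of the tags were spread much like the 8280 listed sites of this kind. Of the 8, 3 lay in 3′UTRs (37.5%, interval 13.7 to 69.4%, against 33.1% in the list), 3 in introns, 1 in a coding exon and 1 in an exon of noncoding transcripts. None was within 100 nt of an annotated end or within 25 nt of AATAAA. For 0 of 8 the interval reaches 32.4%, and the list's shares, 10.7 and 19.7%, lie inside it. The smallest distance to an end was 158 nt. Each was alone in its cluster. In 5 of them every tag carried the deletion. With 8 to 25 tags, the Wilson intervals started between 52.3 and 86.7%.

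Of 12 genes for binding partners of annexins, receptors and linked proteins, 7 held sites in their 3′UTRs, whereas 31.8% of protein-coding genes did: S100A10, S100A11, S100A6, PDCD6, SRI, AHNAK and PLAT. DYSF, FPR1, FPR2, PLG and ANXA2R held none. The 12 genes were chosen with earlier results of these data known, and the 31.8% covers genes whatever their expression in this line. S100A10, the partner of ANXA2, had 8 sites, the strongest with 877 of 21188 tags deleted (4.14%, interval 3.88 to 4.42%), 6 nt from an end. S100A11, the partner of ANXA1, had 6, the strongest with 678 of 23051 tags (2.94%, interval 2.73 to 3.17%), 10 nt from an end. S100A6, which binds several annexins, had 16 sites, the strongest with 5793 of 79124 tags (7.32%, interval 7.14 to 7.51%). AHNAK, a scaffold that binds the ANXA2 complex, had 13 sites, 12 of them in the 3′UTR, with up to 2505 of 43063 tags deleted (5.82%). PDCD6, which binds ANXA7 and ANXA11, had 5 sites, but its strongest (739 of 23115 tags, 3.20%) also lies in the readthrough gene PDCD6-AHRR. SRI, which binds ANXA7, had 1 site (50 of 1354 tags, 3.69%), and PLAT, the tissue plasminogen activator, had 7, with up to 589 of 38423 tags (1.53%). The other annexin genes ANXA8L1, ANXA9, ANXA10 and ANXA13 had none.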

How the data were processed

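RBMS3 CLIP-seq of 2 biological replicates was deposited as 1 list of sites. According to the methods of the study, the authors appended molecular identifiers to the reads and used the CLIP Tool Kit (version not given in the sources used here) to align them to hg38, pool unique tags and call sites from deletions, at a false discovery rate under 10% and a fold over 10 that is not defined further. RNA was captured and primed through poly(A), and native tails can be captured in the same way, which bears on sites near transcript ends. The deposited values are counts of tags and of deletions per site and are not normalized. Library totals were not analysed here.

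The deleted base was taken as the centre of each 21-nt interval and placed by strand on GENCODE release 44, all transcripts, in the order 3′UTR, 5′UTR, coding exon, noncoding exon and intron. The representative transcript is the Ensembl canonical one. Distances are genomic. Genes overlapping at a site were each counted in ranks over genes. Motifs were searched on the transcript strand within 25 nt of the deleted base. No test across samples was possible. Text names the 9 members with all their sites and, for related genes with a 3′UTR site, the site with the most deletions. The members and lists were chosen with earlier results of these data known. Functions were tested on simulated data. Tools were samtools 1.23.1 and Python 3.11.15 with pandas 2.3.3, pysam 0.24.0, numba 0.67.0, scipy 1.17.1, matplotlib 3.10.9 and numpy 2.4.6.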

Additional observations from a re-analysis of the deposited data

How the results depend on the processing

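Of 65 values recomputed under alternatives, 42 stayed inside the 95% interval of the reported share or median, or within 1.5 times the reported count, and 23 did not. With at least 10% of tags deleted, 8 sites remained, with 37.5% in 3′UTRs, 0% near an end, 0% with AATAAA, 12.5% with the AUA motif and a median of 100%. With 1 site per cluster, 17 sites remained, with 64.7% in 3′UTRs, 41.2% near an end, 29.4% with AATAAA and 41.2% with the AUA motif. Their median was 7.91%. Each cluster then counts once, and the dense ones shrink to 1 site. The 8 sites of 30% or more, each alone in its cluster, thus stand beside only 9 low-percentage clusters. With at least 20 deletions or with under 30% of tags deleted, the 3′UTR share was 96.1 or 98.0% and the share near an end 88.2 or 90.0%. The share near an end was 60.3% by the representative end and 51.7% within 50 nt. AATAAA was present in 25.9% of windows of 10 nt and 81.0% of windows of 50 nt on each side, and the AUA motif in 27.6 and 82.8%, or 13.8% without AATAAA. Leaving out ANXA5 or ANXA1, an alternative chosen after seeing the data, moved none of the shares, counts or the median that far, although the median percentage rose to 1.31% without ANXA5. The share near an end was 67.5% without ANXA5 and 72.7% without ANXA1. Each gene was left out alone, so the dense cluster of the other still counted. These shares were not recomputed without both genes, so they cannot be called independent of them. No paired analysis was possible because the values are sums over both replicates of 1 group, and for the same reason neither replicate could be left out. Depth limits low percentages to deeply covered transcripts.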
